A study of Mus musculus with 36 samples.

Results

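Ikaros cells collected 6 h after 4-hydroxytamoxifen (4-OHT) were compared with Ikaros cells collected 2 h after it, by mRNA sequencing. The libraries were picked by line and time from their labels, 3 at each time, which is 6 of the 36 libraries of the series, and all 12762 genes of the deposited table were tested. The cells are the mouse pre-B line B3. Ikaros cells carry a mouse stem cell virus (MSCV) retroviral vector that encodes wild type Ikaros with a haemagglutinin tag, fused to ERt2, the part of the oestrogen receptor that binds hormone, and GFP from an IRES, and control cells carry the same vector with ERt2 but without Ikaros. Both lines received 0.5 uM 4-OHT, except for the 0 h cultures, and each is a population sorted on GFP and expanded rather than a single clone. Groups were collected at 0, 2, 6, 12, 18 and 24 h, and the 3 libraries at 2 h and at 6 h come from culture batches 1, 3 and 4. The cells of a batch were harvested together, with the drug added 2 h or 6 h earlier, so a batch number pairs the 2 h culture with the 6 h culture. A level below is the deposited log2 value, which is relative to a constant added to the whole table, and a change is a difference of log2 values, 6 h minus 2 h, with its standard error (SE). The depth that each library reached is unknown, since no counts were analysed here.

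Ikaros, encoded by Ikzf1, is a zinc finger protein that binds DNA, often as part of chromatin remodelling complexes, and is required for lymphocytes to develop. Fusion to a hormone-binding domain holds a protein in the cytoplasm until the ligand is added, so that 4-OHT sends it to the nucleus. Pre-B cells that divide show a pre-B cell receptor on their surface, in which an immunoglobulin heavy chain pairs with a surrogate light chain in place of the light chain that the cell has yet to make. As pre-B cells mature they lose the surrogate light chain, leave the cell cycle and rearrange their light chain genes.

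From 2 h to 6 h the Ikaros cells lost RNA of the surrogate light chain (Igll1, Vpreb1 and Vpreb2), of the D-type cyclins Ccnd1 and Ccnd2 with the kinase Cdk6, of 17 of 54 ribosome biogenesis genes and of 8 of 18 chaperones of the endoplasmic reticulum. RNA of inhibitors of the G1 phase (Rb1, Cdkn1b, Cdkn2d) and of the cytokine pathway factor Stat3 rose. At an adjusted p under 0.05, 1425 of 12762 genes were called, or 11.2%. Of these, 712 genes (5.58%) were higher at 6 h and 713 (5.59%) were lower, and 422 of the 1425 changed by at least 1 log2 unit. All 3 libraries of one time lay beyond all 3 of the other in 2893 genes, or 22.7%. Among the called genes, 1418 of 1425 changed in the same direction in each of the 3 batches, beside 6244 of all 12762 genes. The calls come from these same libraries, so the count of 1418 is no separate result.

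The control cells served as background for time with the drug, since the 2 h and 6 h cultures of a batch were harvested together. In them 5 genes were called, 0.0392% of those tested, all of them higher at 6 h, and the libraries of the times did not overlap in 1308 genes, or 10.2%. The unadjusted p was under 0.05 in 3163 genes in the Ikaros cells and in 1402 genes in the control cells. None of the 5 genes was among the 1425. With the culture batch as a block in the model, the control count was 32 and the Ikaros count 1912. The control count also moved with single libraries, from 0 without the control 6 h library of batch 1 to 48 without the control 2 h library of batch 4. The test of the change in the Ikaros cells minus the change in the control cells called 761 genes (5.96%), of which 353 were positive and 408 negative, and 1351 with the batch as a block.

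**Figure D1:**
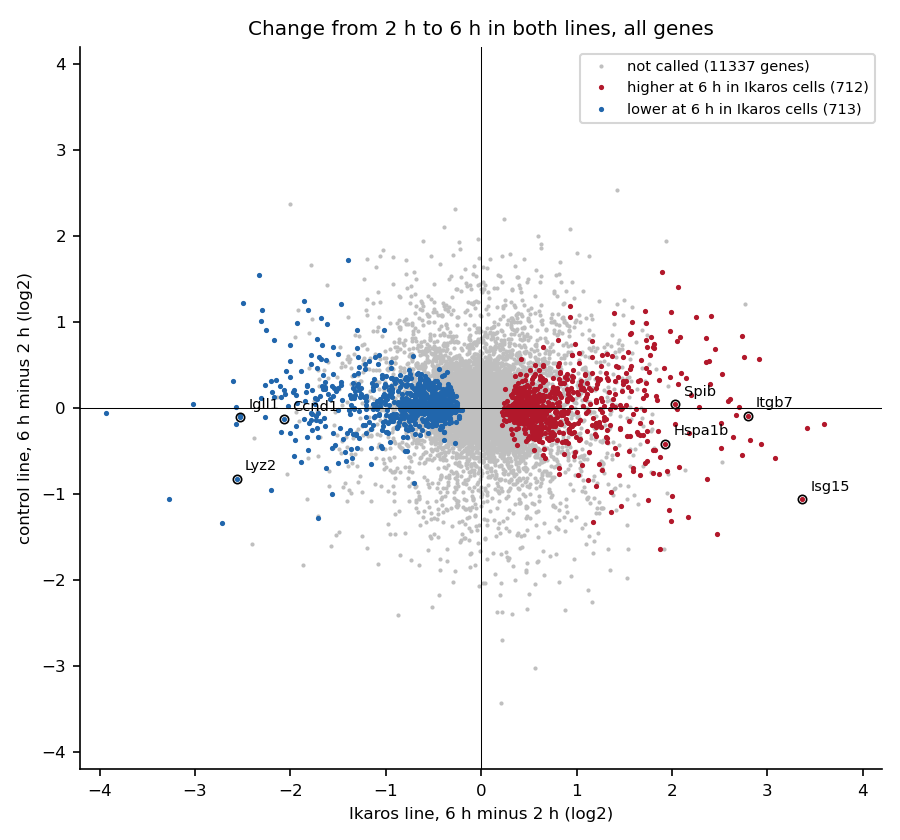
Change from 2 h to 6 h in the Ikaros line (x axis) against the change in the control line (y axis), both as differences of log2 values, with 1 point for each of 12762 genes. The 712 genes called higher (red) and the 713 called lower (blue) in Ikaros cells spread along the x axis and lie on both sides of 0 on the y axis, and the 7 circled genes are named in the text.

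These counts rest on a spread shared by all 12 groups. When the 6 Ikaros libraries were fitted alone, which leaves 4 residual degrees of freedom, 6 genes were called, with 1877 genes at an unadjusted p under 0.05. Leaving out the Ikaros 2 h library of batch 4 lowered the count to 846. Leaving out replicate 1 or replicate 2 of every group, which at 2 h and 6 h are batches 1 and 3, lowered it to 444 or 268. The libraries of batch 4 lay farthest from their group means, with a standard deviation of that distance over all genes of 0.443 at 2 h and 0.466 at 6 h in Ikaros cells against 0.288 to 0.354 in those of the other 2 batches. None of the 109 called genes named here changed sign under any of these settings. They were picked because they were called in these same libraries, so the kept sign is no separate support. Of the 109 genes, 52 lost their call without at least 1 library, 40 of these without the Ikaros 2 h library of batch 4. Adjusted p-values without a library are given below for the library with the largest.

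The label of the lines was checked on Ikzf1 (ENSMUSG00000018654, chromosome 11, 11685003 to 11772926, forward strand, GRCm38). Its level was 19.90, 20.23 and 19.63 in the Ikaros 2 h libraries of batches 1, 3 and 4 and 20.80, 20.57 and 20.28 at 6 h, against 13.95 to 14.73 in the control cells at the same times. Every Ikaros library lay above every control library, and the Ikaros libraries at 6 h lay above those at 2 h. The change was 0.63 (SE 0.18, adjusted p = 0.026), and the difference from the control change was 0.88 (adjusted p = 0.042). The call was lost when any 1 of 4 Ikaros libraries was left out, with an adjusted p up to 0.153 without the 2 h library of batch 4. Reads from the vector and from the chromosomal gene are counted together here. Of the other Ikaros family genes, 2 were tested and neither was called.

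All 10 pre-B cell markers were measured. Pax5, Ebf1, Cd79a and Vpreb3 stood at 16.50, 16.11, 18.13 and 17.17 at 2 h in Ikaros cells, while Rag1 stood below the library medians of about 11.71. Of the T cell markers 2 of 10 were in the table analysed here, of the myeloid markers 3 of 11, of the erythroid markers 4 of 9 and of the mature B cell markers 4 of 9. Among these 13 genes Cr2 and Lyz2 fell and Itgam rose, and all 3 are returned to below. With the batch as a block Cd28 of the T cell markers was called lower (-0.75, adjusted p = 0.0056). Ighm of mature B cells (0.49, adjusted p = 0.010) and Hbb-b2 of erythroid cells (1.01, adjusted p = 0.0054) were then called higher. Summed over the 4 mature B cell markers, the log2 level was 17.61 to 18.18 at 2 h and 18.24 to 18.71 at 6 h. In control cells it was 17.46 to 17.88 and 17.38 to 17.64. The log2 of the summed myeloid level was 10.8 to 11.1 at 2 h and 10.9 to 11.0 at 6 h. For the T cell pair, Lck and Cd28, it was 12.9 to 13.3 at 2 h and 12.2 to 12.8 at 6 h, and for the erythroid genes 10.9 to 11.6 and 11.6 to 12.4. The mean level of 14 mitochondrial transcripts was 19.8 to 19.9 at 2 h and 19.7 at 6 h, and none of them was called. In bulk RNA of this kind, fewer cells of a type and less RNA per cell cannot be told apart.

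The surrogate light chain is made of the lambda-5 protein, encoded by Igll1, and a VpreB protein, encoded by Vpreb1 or the near-identical Vpreb2. Igll1 (chromosome 16, 16860671 to 16863985, reverse strand, GRCm38) stood at 15.32, 15.50 and 15.84 at 2 h and at 12.88, 13.28 and 12.93 at 6 h. The times were far apart, while the control cells held 16.61 to 17.22 at both times. Igll1 fell by 2.52 (SE 0.20, adjusted p = 5.9e-09), a 5.75-fold loss. It was the gene with the largest fall under the rule by which genes were named. Vpreb1 (chromosome 16, 16868403 to 16870843, reverse strand) went from 15.13, 15.56 and 15.89 to 13.47, 14.09 and 13.88, and Vpreb2 (chromosome 16, 17980428 to 17981273, forward strand) from 11.85, 12.14 and 12.06 to 10.54, 9.84 and 9.80. Neither gene's times overlapped, and the changes were -1.71 (SE 0.25, adjusted p = 5.7e-05) and -1.96 (SE 0.29, adjusted p = 6.1e-05). Reads from Vpreb1 and Vpreb2 can be hard to assign to the right copy, so their values are uncertain one from the other. Vpreb3, which associates with heavy chains inside the cell and is encoded on chromosome 10, went from a mean of 17.17 to 16.91 with overlapping libraries, a change of -0.26 (SE 0.26, adjusted p = 0.60). Thus 3 of the 4 genes fell, with a median change of -1.84 beside 0.01 over all genes. In control cells the median of the 4 was 0.06, and the difference between the lines was called for the same 3 genes, at -2.42 for Igll1, -2.16 for Vpreb2 and -1.66 for Vpreb1.

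The promoter windows of the 3 genes that fell are shown because GGGAA is the core that Ikaros family proteins bind in vitro. Each window is 300 bases long, most of them before the start that RefSeq gives the gene, and is taken from RefSeq on GRCm38.p6, with every GGGAA on either strand in capitals, which reads TTCCC where it lies on the other strand. The Igll1 window (chr16:16863936-16864235, minus strand) held no match, the Vpreb1 window (chr16:16869206-16869505, minus strand) held 1 and the Vpreb2 window (chr16:17980315-17980614, plus strand) held 2. The window of Vpreb3, which was not called, also held 2 and is not printed. The gene bounds above are those of GENCODE, which takes in other transcripts, so that by these bounds the Vpreb1 window lies inside the gene and more of the Vpreb2 window lies after the start than before it. The Vpreb1 and Vpreb2 windows share a run of 91 identical bases, in which one match lies.
Igll1: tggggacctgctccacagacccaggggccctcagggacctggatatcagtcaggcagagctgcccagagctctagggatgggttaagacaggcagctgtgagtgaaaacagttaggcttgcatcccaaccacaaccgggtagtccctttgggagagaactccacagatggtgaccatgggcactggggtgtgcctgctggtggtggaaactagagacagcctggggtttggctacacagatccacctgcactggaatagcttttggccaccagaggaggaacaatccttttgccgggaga
Vpreb1: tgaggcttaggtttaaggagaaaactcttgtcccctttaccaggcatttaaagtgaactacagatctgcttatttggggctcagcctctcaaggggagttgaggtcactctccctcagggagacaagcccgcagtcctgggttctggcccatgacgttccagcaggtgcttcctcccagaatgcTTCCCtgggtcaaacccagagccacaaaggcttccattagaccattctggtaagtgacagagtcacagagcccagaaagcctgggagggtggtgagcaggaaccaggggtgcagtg
Vpreb2: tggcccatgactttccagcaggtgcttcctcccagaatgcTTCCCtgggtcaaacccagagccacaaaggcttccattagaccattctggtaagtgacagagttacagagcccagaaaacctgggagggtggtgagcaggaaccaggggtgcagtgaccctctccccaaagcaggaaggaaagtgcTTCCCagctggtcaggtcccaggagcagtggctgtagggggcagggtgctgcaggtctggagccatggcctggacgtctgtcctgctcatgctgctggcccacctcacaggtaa

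GGGAA is common, since it was in 62.7% of all 32851 windows given and in 64.65% of the 11906 windows of tested genes. The longer TGGGAA, on either strand and always overlapping a GGGAA, was in 25.6% of all windows and in 22.7% of those of tested genes. It was in 28.1% of the windows of genes called lower and in 22.7% of those of genes called higher. The E-box CACGTG was in 7.15% of all windows and in 10.0% of those of tested genes. Its shares were 12.3% for genes called lower and 7.94% for genes called higher. A window was given for 577 of the 713 genes called lower, but for 74.7% of the genes called higher and 73.9% of all 12762 genes, too few for these shares to be compared. A match is a sequence in a window and not a site that a factor was shown to bind here.

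**Figure D2:**
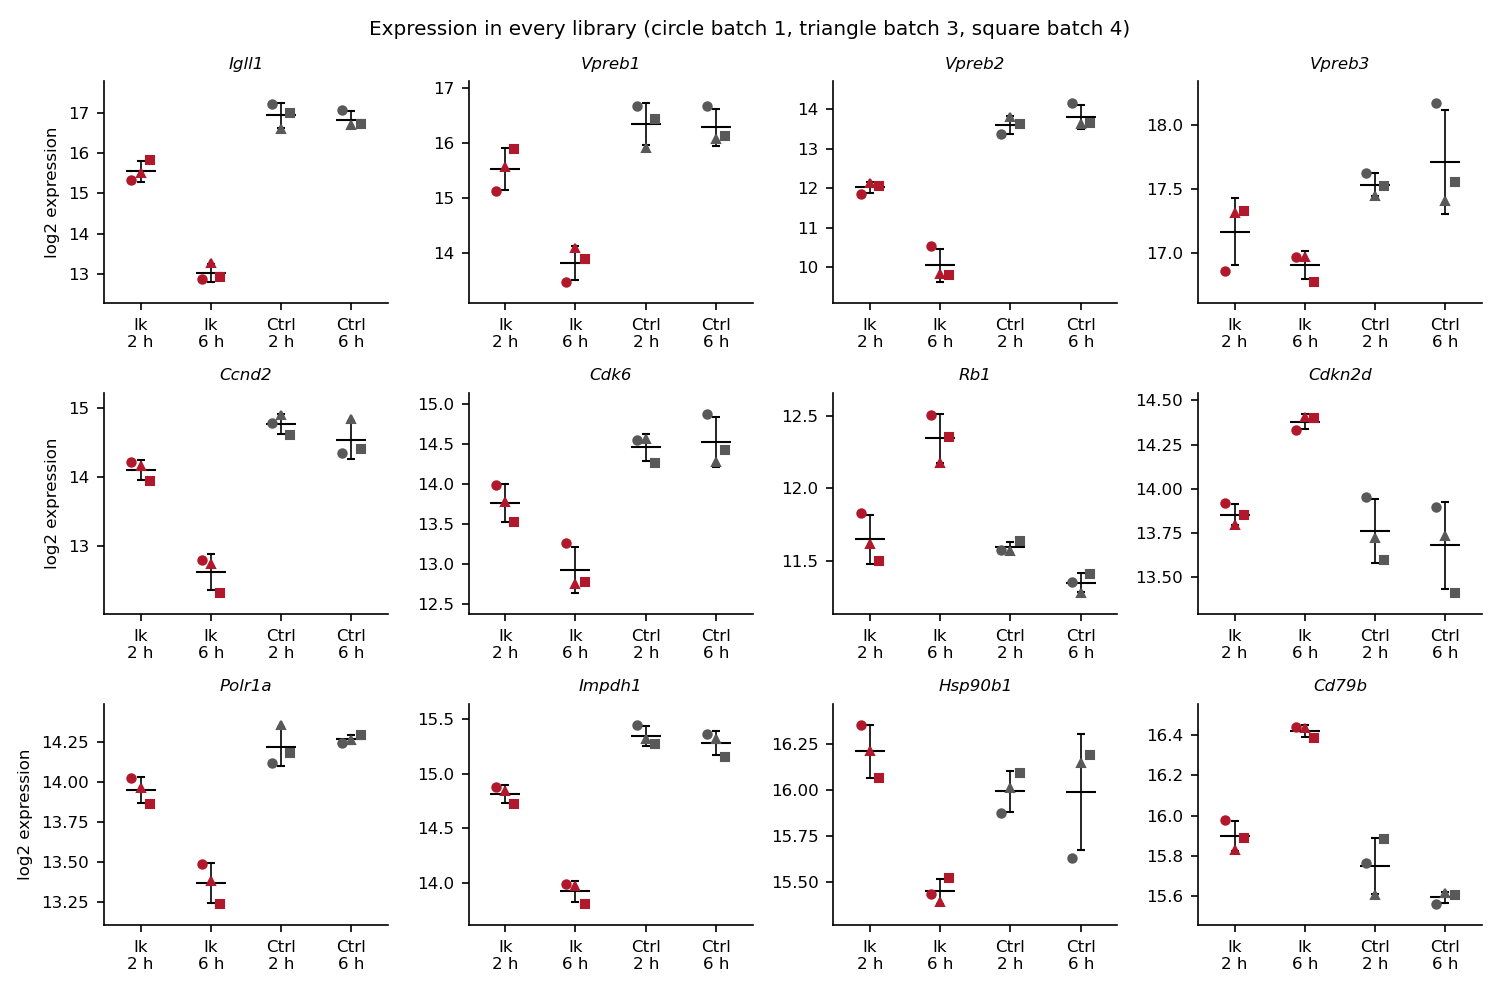
Log2 level (y axis) of 12 genes in each library of Ikaros (red) and control (grey) cells at 2 h and 6 h, with the mean and SD of 3 libraries as bars. In Ikaros cells 11 of the 12 genes, all but Vpreb3, have no overlap between 2 h and 6 h, beside 22.7% of all genes. These 11 were picked from the called genes, so their count is no separate result. In both lines the y axes do not start at 0.

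Other parts of the pre-B cell receptor changed less, and in both directions. Cd79b, the Ig-beta signalling chain, went from 15.98, 15.83 and 15.89 to 16.44, 16.44 and 16.39, a rise of 0.52 (SE 0.11, adjusted p = 0.0018) that also exceeded the control change, by 0.68 (adjusted p = 0.0090). Its partner Cd79a, the Ig-alpha chain, was not called (-0.16, SE 0.10). Among 12 kinases and adaptors, Syk, the kinase recruited to the receptor, rose by 0.29 (SE 0.09, adjusted p = 0.027). Ptpn6, the phosphatase SHP-1 that dampens receptor signals, went from 14.35 to 14.56 across the 2 h libraries to 13.90 to 13.98 at 6 h and fell by 0.54 (SE 0.12, adjusted p = 0.0031). The other 10 were not called, though Lyn was with the batch as a block (0.32, adjusted p = 0.037). The Syk call was lost without any 1 of 3 libraries, with an adjusted p of 0.155 without the 2 h library of batch 4. Of the 13 genes of V(D)J recombination, which joins antibody gene segments, the recombinase genes Rag1 (-0.12, SE 0.29) and Rag2 (-0.05, SE 0.16) were not called between 2 h and 6 h. A pair of DNA polymerases of end joining rose, Poll by 0.47 (SE 0.10, adjusted p = 0.0025) and Polm by 0.45 (SE 0.13, adjusted p = 0.023), the latter with an adjusted p of 0.099 without the 6 h library of batch 3.

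The D-type cyclins bind Cdk4 and Cdk6 and drive cells through G1. Ccnd2 went from 14.22, 14.16 and 13.94 to 12.80, 12.74 and 12.32, a change of -1.48 (SE 0.18, adjusted p = 6.3e-06), and the control libraries held 14.35 to 14.91 at both times. Ccnd1 stood lower, at 10.99, 11.34 and 10.60, and reached 9.27, 8.86 and 8.59, a change of -2.07 (SE 0.23, adjusted p = 2.3e-06). Neither cyclin's libraries overlapped between times. Ccnd3, the third D-type cyclin, went from a range of 16.38 to 16.61 to one of 16.63 to 16.84, a change of 0.22 (SE 0.11) that did not pass the test (adjusted p = 0.21). Of the kinases, Cdk6 went from 13.98, 13.78 and 13.52 to 13.26, 12.75 and 12.78 and fell by 0.83 (SE 0.16, adjusted p = 0.0013), and Cdk4 was not called (-0.10, SE 0.09). On the side that restrains G1, Rb1, the retinoblastoma protein that the cyclin D kinases inactivate, rose by 0.70 (SE 0.12, adjusted p = 0.00026). Cdkn2d, an inhibitor of those kinases, rose by 0.53 (SE 0.11, adjusted p = 0.0032), and Cdkn1b, the inhibitor p27, by 0.63 (SE 0.20, adjusted p = 0.037). Of the 9 inhibitors measured 3 rose and none fell. The difference from the control change was called for Ccnd1 (-1.94), Ccnd2 (-1.25), Cdk6 (-0.90), Rb1 (0.94) and Cdkn2d (0.60), and for Cdkn1b it was 0.83 with an adjusted p of 0.073, and 0.018 with the batch as a block. Cdkn1b lost its call without any 1 of 4 libraries, with an adjusted p of 0.250 without the 2 h library of batch 4.

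The machinery of S phase and mitosis did not move as a group in this interval. Of 41 DNA replication genes 1 rose and 1 fell, and of the 17 helicase and licensing genes none was called. With the batch as a block 4 of the 41 rose, with Mcm5 (0.44, adjusted p = 0.034), Cdt1 (0.29, adjusted p = 0.025) and Rfc2 (0.22, adjusted p = 0.047) beside Pcna, and 1 fell. Pcna, the clamp that holds DNA polymerase on the template, went from a mean of 16.68 to 17.50, a rise of 0.82 (SE 0.26, adjusted p = 0.040), and its control libraries ran from 16.84 to 18.03. Tyms, which makes thymidylate, went from 13.32, 13.36 and 13.87 to 12.78, 12.89 and 12.57 and fell by 0.77 (SE 0.15, adjusted p = 0.0014). Of 32 mitosis genes, Cdc25b, a phosphatase that activates mitotic kinases, rose by 0.73 (adjusted p = 0.0059) and Aurkb by 0.29 (adjusted p = 0.017), while Ccnb1 fell by 0.47 (adjusted p = 0.029) and Ckap2 by 0.48 (adjusted p = 0.0085). Each call was lost without at least 1 library except that of Tyms, with adjusted p of 0.182 for Pcna without the 6 h library of batch 1, and of 0.056 and 0.077 for Cdc25b and Aurkb without the 2 h library of batch 4. Without the 6 h library of batch 4 the values were 0.180 for Ccnb1 and 0.079 for Ckap2. Between 12 h and 24 h, in libraries that enter neither time compared here, 38 of the 41 replication genes fell and none rose. Over all genes, 21.0% fell and 20.0% rose in that later interval.

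Ribosome biogenesis fell more evenly. RNA polymerase I transcribes the ribosomal RNA genes, and a large set of nucleolar proteins trims the transcript and assembles it with ribosomal proteins. Of 54 genes in the list 17 fell and none rose, with a median change of -0.34, and the mean level of the 40 processing and assembly genes was 14.43, 14.28 and 14.30 at 2 h and 13.89, 13.97 and 13.97 at 6 h. All 3 libraries at 6 h lay below those at 2 h, and the control libraries held 14.53 to 14.55 at 2 h and 14.32 to 14.55 at 6 h. All 40 of these genes had a negative change, from -0.78 to -0.07, and 14 passed the test. Nop16, a nucleolar protein, fell by 0.78 (SE 0.14, adjusted p = 0.00059), Gnl3, the nucleolar GTPase nucleostemin, by 0.73 (SE 0.16, adjusted p = 0.0038), Nop2, which methylates ribosomal RNA, by 0.70 (SE 0.14, adjusted p = 0.0022) and Rrp1b by 0.68 (SE 0.16, adjusted p = 0.0065). Of the 14 polymerase I genes 3 fell. Polr1a, the largest subunit, went from 14.03, 13.96 and 13.86 to 13.48, 13.38 and 13.24 (-0.58, SE 0.10, adjusted p = 0.00027), and Polr1b, the second largest, from 12.93 to 13.18 at 2 h to 12.27 to 12.39 at 6 h (-0.70, SE 0.13, adjusted p = 0.0011). Taf1d, a subunit of the factor that places the polymerase on its promoter, fell by 0.77 (SE 0.24, adjusted p = 0.041) with libraries that overlapped, and had an adjusted p of 0.194 without the 2 h library of batch 4. The difference between the lines was called for 6 of the 54 genes, all negative, with a median difference of -0.32, and for 10 with the batch as a block. From 12 h to 24 h 35 of the 54 fell and 2 rose, beside 21.0% and 20.0% of all genes.

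The 78 ribosomal protein genes of the cytosol did not follow. None of them was called, and their changes ran from -0.36 to 0.23 with a median of -0.08. Their mean level was 18.17, 18.09 and 18.34 at 2 h and 17.89, 18.17 and 18.28 at 6 h. Among 36 initiation factors and their regulators 3 fell. Eif2b3, a subunit of the factor that reloads eIF2 with GTP, fell by 0.80 (SE 0.17, adjusted p = 0.0027), Eif4ebp1, an inhibitor of cap binding, by 0.57 (SE 0.17, adjusted p = 0.029) and Eif1a by 0.41 (SE 0.11, adjusted p = 0.017). Eif2b3 kept its call in each fit without 1 library, whereas that of Eif4ebp1 reached 0.146 without the 2 h library of batch 4 and that of Eif1a 0.103 without the 6 h library of batch 1. Of 20 tRNA synthetases Vars rose (0.21, adjusted p = 0.037) and Farsa fell (-0.35, adjusted p = 0.024), and their adjusted p rose to 0.114 without the 6 h library of batch 1 and to 0.146 without the 2 h library of batch 4. Iars was called too with the batch as a block (-0.28, adjusted p = 0.048).

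The enzymes that make nucleotides gave 3 falls among 18 genes and no rise, with a median of -0.21. Impdh1, which commits purines to guanine nucleotides, went from 14.88, 14.84 and 14.73 to 13.99, 13.97 and 13.81, while its control libraries held 15.15 to 15.45. The times were wide apart beside a narrow spread, and the change of -0.89 (SE 0.09) had an adjusted p of 4.2e-07. Atic, of the last steps of purine synthesis, fell by 0.43 (SE 0.11, adjusted p = 0.012) and Umps, of pyrimidine synthesis, by 0.35 (SE 0.11, adjusted p = 0.039), with adjusted p of 0.060 and 0.111 without the 2 h library of batch 1. Shmt1 fell among 11 genes of serine and one-carbon metabolism (-0.53, adjusted p = 0.017), Slc1a5, a glutamine carrier, among 10 amino acid transporters (-0.39, adjusted p = 0.0099) and Gpt2 among 15 genes of the integrated stress response (-0.39, adjusted p = 0.035). These 3 had adjusted p of 0.105, 0.065 and 0.132 without one library, the 6 h library of batch 4 for Shmt1 and Gpt2 and that of batch 1 for Slc1a5. With the batch as a block a further transporter, Slc6a9, was called (-0.56, adjusted p = 0.030).

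Energy metabolism was little changed by the test used. Of 67 nuclear genes for oxidative phosphorylation none was called (median -0.05), and the proteasome gave none of 31 (median -0.02). With the batch as a block Ndufa5, of complex I, was called (-0.85, adjusted p = 0.035), and no other of the 67. Of 23 glycolysis genes 1 was called, and with the batch as a block Pfkp (0.41, adjusted p = 0.047) and Hk1 (-0.40, adjusted p = 0.012) were called as well. Hk2, a hexokinase, went from 12.76, 12.66 and 12.30 to 13.18, 12.92 and 13.32, a rise of 0.57 (SE 0.15, adjusted p = 0.012), while control cells rose by 0.50 without passing the test (adjusted p = 0.20) and the difference was 0.07 (adjusted p = 0.88). The Hk2 call was lost without the 2 h library of batch 4 (adjusted p = 0.097). Ldha, lactate dehydrogenase A, was not called (-0.17, SE 0.22). From 12 h to 24 h Hk2 fell by 1.50 and Ldha fell by 2.65.

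Chaperones of the endoplasmic reticulum fold proteins for secretion and the cell surface. Of 18 genes 8 fell and none rose, with a median of -0.34, and their mean level went from 14.47, 14.41 and 14.45 to 13.96, 14.05 and 14.05. The times did not overlap, and control cells held 14.31 to 14.40 and then 14.25 to 14.37. Hspa5, the chaperone BiP, went from 15.68, 15.42 and 15.17 to 14.76, 14.69 and 14.57 (-0.75, SE 0.17, adjusted p = 0.0042). Hsp90b1, the chaperone GRP94, went from 16.36, 16.22 and 16.07 to 15.44, 15.39 and 15.52 (-0.76, SE 0.15, adjusted p = 0.0014). Manf, a secreted stress protein, fell by 0.60 (SE 0.15, adjusted p = 0.0079), and Hyou1, Calr, Pdia6 and Creld2 fell by 0.57, 0.55, 0.51 and 0.49. Fkbp11, a prolyl isomerase, fell furthest, by 1.34 (SE 0.44, adjusted p = 0.048), but its 3 libraries at 6 h ran from 10.80 to 12.25, and it passed neither with the batch as a block (adjusted p = 0.051) nor without the 6 h library of batch 1 (0.197). Among 17 cytosolic heat shock proteins and chaperonins, Hspa1b rose from 7.91, 7.33 and 6.74 to a mean of 9.25 (1.92, SE 0.26, adjusted p = 1.7e-05), a low level shared with reads of its near copy. Cct3, a chaperonin subunit, fell by 0.28 (adjusted p = 0.029, and 0.134 without the 6 h library of batch 3). Dnajb1 was called once the batch was a block (0.50, adjusted p = 0.0068).

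A motif of this pathway was searched after those values were seen. It is the endoplasmic reticulum stress response element, CCAAT and CCACG with 9 bases of any kind between them, on either strand, and it is shown because few promoters hold it. It was in 15 of 11906 windows of matched genes, 0.13%, and in 7 of the 17 windows of the chaperone list, those of Hspa5, Hsp90b1, Calr, Pdia6, Creld2, Canx and Dnajc3. Of these 7 genes the first 5 fell, while Canx (-0.21, adjusted p = 0.057, and 0.046 with the batch as a block) and Dnajc3 (0.03) did not pass the test. Of the 8 genes outside the list whose windows held it, Derl3, a protein of endoplasmic reticulum quality control, and Acacb, an acetyl-CoA carboxylase, fell by 0.85 and 0.95, and the other 6 were not called, with changes from -0.14 to 0.91. The element was first described from promoters of genes of this kind, so that its presence there is background. The Hspa5 window (chr2:34771840-34772139, plus strand) holds 1 copy and the Hsp90b1 window (chr10:86705395-86705694, minus strand) 2, given in capitals, the second of Hsp90b1 on the other strand.
Hspa5: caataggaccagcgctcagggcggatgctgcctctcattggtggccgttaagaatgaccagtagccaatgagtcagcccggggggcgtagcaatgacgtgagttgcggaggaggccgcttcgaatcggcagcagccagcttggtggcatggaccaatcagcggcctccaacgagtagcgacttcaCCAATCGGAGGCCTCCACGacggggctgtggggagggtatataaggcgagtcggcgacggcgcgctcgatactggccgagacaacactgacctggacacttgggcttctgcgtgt
Hsp90b1: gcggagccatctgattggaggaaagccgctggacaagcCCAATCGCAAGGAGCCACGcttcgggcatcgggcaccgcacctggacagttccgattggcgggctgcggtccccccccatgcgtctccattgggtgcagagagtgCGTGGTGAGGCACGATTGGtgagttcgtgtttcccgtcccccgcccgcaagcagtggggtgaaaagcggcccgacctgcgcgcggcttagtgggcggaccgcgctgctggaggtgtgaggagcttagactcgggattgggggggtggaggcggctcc

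**Figure D3:**
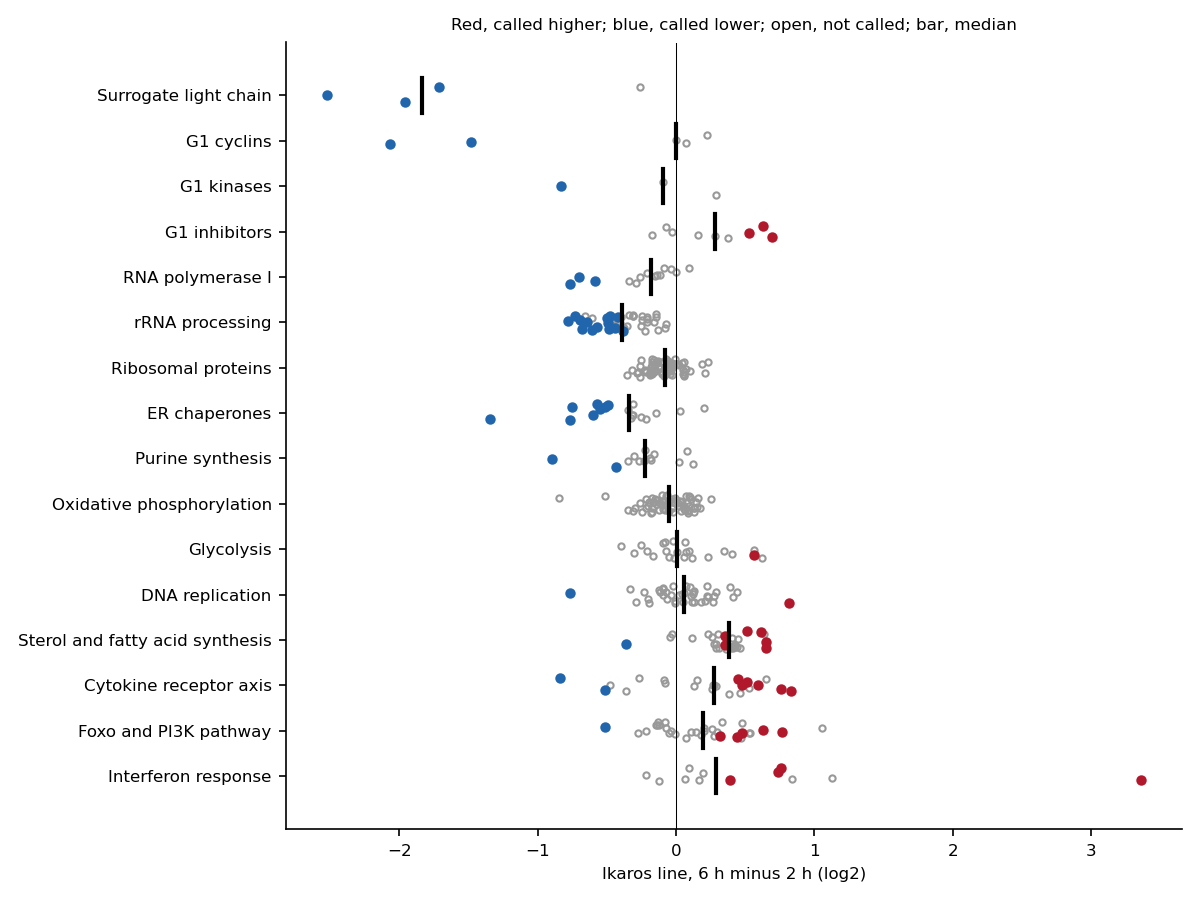
Change from 2 h to 6 h in Ikaros cells (x axis, difference of log2 values) of each measured member of 16 gene groups (y axis), with the group median as a bar. Members of the surrogate light chain, rRNA processing and ER chaperone groups called lower (blue) lie left of 0, ribosomal proteins and oxidative phosphorylation hold no called member, and 6 sterol and fatty acid synthesis members are called higher (red).

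Most sterol and fatty acid genes had a positive change, and a minority passed the test. The change was positive in 25 of 28, and 14 had all 6 h libraries above all 2 h libraries, beside 1490 of all 12762 genes. Their mean level was 14.02, 14.16 and 13.92 at 2 h and 14.34, 14.42 and 14.36 at 6 h. Control cells held 13.67, 13.83 and 13.60 and then 13.80, 13.95 and 13.77. The pathway turns acetyl-CoA into cholesterol, and of 28 genes for sterols and fatty acids 6 rose and 1 fell, with a median of 0.38 in Ikaros cells and 0.18 in control cells. With the batch as a block 10 rose, and the difference between lines was called higher for 1, Insig1 (0.94, adjusted p = 0.015). Mvd went from 13.20, 13.50 and 13.40 to 13.74, 14.13 and 14.18 (0.65, SE 0.15, adjusted p = 0.0064), and Hmgcs1, an early enzyme, from 14.89 to 15.28 at 2 h to 15.55 to 15.77 at 6 h (0.61, SE 0.12, adjusted p = 0.0016). Lss (0.65), Fdft1 (0.52), the regulator Srebf1 (0.35) and Idi1 (0.35) also rose, and Ebp fell by 0.36. Control cells moved the same way without passing the test for Mvd (0.48), Lss (0.50) and Fdft1 (0.44), and the difference between lines was called for none of the 6 that rose. It was called for Ebp (-0.59, adjusted p = 0.0093). Lss, Srebf1, Idi1 and Ebp lost their calls without a single library, at adjusted p of up to 0.052, 0.129, 0.128 and 0.071, without the 6 h library of batch 3 for Lss and Idi1, the 2 h library of batch 1 for Srebf1 and that of batch 3 for Ebp.

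Several cytokine pathway genes rose. Of 23 genes of this list 6 rose and 2 fell, beside 5.58% and 5.59% of all genes, and the median change was 0.28. With the batch as a block 8 rose, Stat5b (0.53, adjusted p = 0.0079) and Il4ra (0.29, adjusted p = 0.020) among them. The difference between the lines was called for 3 of the 23, all positive, and for 5 with the batch as a block. Stat3, a factor activated by cytokine receptors, went from 11.62, 11.72 and 11.44 to 12.37, 12.29 and 12.62 (0.83, SE 0.14, adjusted p = 0.00026), and the difference from control cells was 0.90 (adjusted p = 0.0084). Tyk2, a kinase of the same receptors, rose by 0.47 (SE 0.09, adjusted p = 0.0013), Crlf2, the receptor chain for TSLP, by 0.59 (SE 0.14, adjusted p = 0.0060), the kinase Pim2 by 0.45 (SE 0.10, adjusted p = 0.0044) and the survival gene Bcl2l1 by 0.52 (SE 0.14, adjusted p = 0.013). Il7r, the receptor for interleukin 7 on which pre-B cells grow, fell by 0.52 (SE 0.16, adjusted p = 0.041) with a slight overlap of libraries, and Osm, a cytokine, by 0.84 (adjusted p = 0.042). Without 1 library the adjusted p was 0.249 for Il7r and 0.340 for Osm (the 6 h library of batch 4) and 0.100 for Bcl2l1 (that of batch 1).

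Of 12 interferon response genes 4 rose and none fell, and their mean level went from 9.39, 9.24 and 9.67 to 10.01, 9.85 and 10.28. In control cells that level was 9.7 to 9.9 at 2 h and 9.4 to 9.6 at 6 h, without overlap. The median change was 0.29 in Ikaros cells and -0.23 in control cells, and the median difference between the lines was 0.77. Isg15, a ubiquitin-like protein, rose from 6.80, 6.33 and 5.41 to 9.32, 8.83 and 10.48, a change of 3.36 (SE 0.45, adjusted p = 1.9e-05) at a level well below the table median, and in control cells it moved by -1.06 (adjusted p = 0.38). Ifit2 rose by 0.74 (SE 0.19, adjusted p = 0.013) and Irf1 by 0.39 (SE 0.12, adjusted p = 0.027). Both lost their call without the 2 h or the 6 h library of batch 4, with adjusted p of up to 0.105 and 0.144, while Isg15 kept it in each fit without 1 library.

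Forkhead factors of the Foxo family are held inactive by growth factor signalling, and RNA of 2 of the 3 measured rose. Foxo1 went from 14.78, 14.65 and 14.62 to 15.29, 15.04 and 15.04 (0.44, SE 0.09, adjusted p = 0.0013), beyond the control change by 0.53 (adjusted p = 0.012). Foxo3 went from 11.36 to 11.95 at 2 h to 12.34 to 12.69 at 6 h (0.76, SE 0.21, adjusted p = 0.016, and 0.116 without the 2 h library of batch 4). In all, 5 of 32 genes of the Foxo and PI3K list rose and 1, Il7r, fell. Pik3cd, the catalytic subunit of PI3K delta, rose by 0.32 (SE 0.07, adjusted p = 0.0028) and Pik3ip1, an inhibitor of PI3K, by 0.48 (SE 0.16, adjusted p = 0.044, and 0.280 without the 6 h library of batch 4). From 12 h to 24 h 23 of the 32 rose and 1 fell, beside 20.0% and 21.0% of all genes.

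Among 20 lineage factors 3 rose and 1 fell. Spib, an Ets family factor of B cells, rose from 8.98, 8.96 and 8.08 to 11.26, 10.46 and 10.40 (2.03, SE 0.30, adjusted p = 6.1e-05), and control cells held 7.61 to 8.82. Bach2, a repressor that keeps B cells from becoming plasma cells, rose by 0.94 (SE 0.28, adjusted p = 0.027), Foxo1 is given above, and Sox4 fell by 0.55 (SE 0.18, adjusted p = 0.047). Bach2 and Sox4 had adjusted p of 0.208 and 0.311 without the 2 h library of batch 4. Myc, a driver of growth, stood at 14.69, 14.90 and 14.64 at 2 h and 14.76, 14.74 and 14.71 at 6 h, a change that rounds to 0.00 (SE 0.17, adjusted p = 0.99). From 0 h to 2 h Myc had changed by -1.66 in the same line, and from 6 h to 12 h the difference was -0.45 (adjusted p = 0.054), in comparisons that share libraries with this one. The 0 h cultures were obtained separately, in batches 1, 2 and 4, so the change from 0 h is not fully paired by batch. Among its partners and antagonists Mxi1 rose by 0.50 (adjusted p = 0.0098) and Mga fell by 0.37 (adjusted p = 0.040), with 0.074 and 0.203 without the 2 h and the 6 h library of batch 4. Mxd3 was called once the batch was a block (0.41, adjusted p = 0.047). Of the 13 subunits of the NuRD complex, a chromatin remodeller that Ikaros binds, Mbd2 (0.38, adjusted p = 0.040) and Chd3 (0.35, adjusted p = 0.035) rose, with 0.171 without the 6 h library of batch 4 and 0.132 without the 2 h library of batch 3.

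Several other lists are given next, beside 11.2% of all genes called in either direction. Trp53, the tumour suppressor p53, went from 14.91, 14.98 and 15.25 to 14.35, 14.42 and 14.34 (-0.68, SE 0.10, adjusted p = 6.1e-05), and its target Aen fell by 0.55 (adjusted p = 0.0018), 2 falls among 17 genes. In the Bcl2 family of 12, the death gene Bok fell by 1.83 (SE 0.31, adjusted p = 0.00033) and Bid rose by 0.42 (adjusted p = 0.039, and 0.256 without the 2 h library of batch 4), beside Bcl2l1 above. Junb (0.63, adjusted p = 0.00060) and Ier5 (0.71, adjusted p = 0.010, and 0.066 without the 2 h library of batch 4) rose among 20 immediate early genes. Tnip1, a brake on NF-kB, rose among 12 genes of that pathway (0.52, adjusted p = 0.00032). None of 10 MAP kinase feedback genes and none of 7 Notch genes was called. Of 19 lysosome genes 2 rose, among them Mcoln1 (0.39, adjusted p = 0.022, and 0.125 without the 2 h library of batch 4), and 6 with the batch as a block.

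On the cell surface, Cd93, a receptor of immature B cells, went from 14.68, 14.71 and 14.29 to 13.87, 13.52 and 13.45 (-0.95, SE 0.17, adjusted p = 0.00046). Cr2, the complement receptor CD21 of mature B cells, fell by 0.40 (adjusted p = 0.044, and 0.214 without the 2 h library of batch 4). Of 13 adhesion and migration genes 3 rose, and 5 with the batch as a block. Itgb7, an integrin chain, rose from 5.73, 7.41 and 7.66 to 9.40, 9.78 and 9.99 (2.79, SE 0.49, adjusted p = 0.00046), in a low range where libraries scatter. Icam1 rose by 0.40 (SE 0.07, adjusted p = 0.00033) and S1pr4 by 0.44 (adjusted p = 0.024, and 0.113 without the 2 h library of batch 1). The myeloid markers Lyz2, which encodes lysozyme, and Itgam, an integrin chain, moved in opposite directions at low levels. Lyz2 went from 8.91, 9.32 and 9.80 to 7.39, 7.31 and 5.64 (-2.56, adjusted p = 0.0032), and Itgam from 5.83, 5.81 and 6.02 to 8.10, 7.85 and 7.46 (1.92, adjusted p = 0.021, and 0.070 without the 6 h library of batch 1).

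Other large changes lay outside these lists. By the rule, among called genes at or above the median gene level with the same direction in every batch, the 12 largest rises were led by Ltb, the membrane lymphotoxin beta, which went from 11.61, 11.80 and 11.62 to 12.66, 13.38 and 13.44 (1.49, SE 0.28, adjusted p = 0.00089). It was followed by Snord72, a small nucleolar RNA (1.40), Akap12, a scaffold for protein kinase A (1.32), the beta tubulin Tubb2b (1.30), Cpne5, a calcium-binding protein (1.28), and Neil1, a DNA glycosylase of base excision repair (1.24). Tubb2a (1.06), Srp54b (1.04), Agpat9 (1.02), Hspa2 (0.95), Arrdc3 (0.95) and Maml3 (0.94) complete the set. Agpat9, an acyltransferase that starts triglyceride synthesis, had the tightest libraries, at 11.90 to 12.21 against 12.89 to 13.19 (SE 0.10, adjusted p = 4.4e-07). Snord72 is poorly captured by mRNA libraries, and Tubb2a, Tubb2b and Srp54b have close copies in the genome, so these values are uncertain. Of the 12, 6 lost their call without the 2 h library of batch 4, at adjusted p of 0.104 for Snord72, 0.116 for Tubb2a, 0.234 for Srp54b, 0.151 for Hspa2, 0.054 for Arrdc3 and 0.053 for Maml3.

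The 12 largest falls included Igll1, Vpreb2, Vpreb1, Ccnd2 and Fkbp11, given above. Tac4, a tachykinin made by blood cells, went from 14.29, 14.35 and 14.19 to 12.19, 12.85 and 12.32 (-1.82, SE 0.24, adjusted p = 1.4e-05). Ptgs1, the cyclooxygenase COX-1, went from 13.45, 13.74 and 12.87 to 11.98, 12.00 and 11.56 (-1.51, SE 0.19, adjusted p = 6.5e-06), and Prkch, a protein kinase C, fell by 1.32 (SE 0.26, adjusted p = 0.0014). The transcription factors Tbx19 and Sox15 fell by 1.75 and 1.65, Vamp5, a vesicle protein, by 1.55 and Epb4.1l4b by 1.50. In each of these 7 genes the control cells showed changes between -0.02 and 0.40 that did not pass the test, and each gene kept its call without any 1 library.

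The rule for the difference between lines named Akap12 (1.72), Tubb2b (1.43), Neil1 (1.40), Agpat9 (1.39) and Plekho2 (1.28) as the most positive. Plekho2 stood far lower in Ikaros than in control cells at 2 h, at 11.24 to 11.89 against 14.13 to 14.90, and rose in Ikaros cells by 0.88 (SE 0.24, adjusted p = 0.016, and 0.115 without the 2 h library of batch 4) while it moved by -0.39 in control cells. The most negative were Igll1 (-2.42), Vpreb2 (-2.16), Tac4 (-2.08), Vamp5 (-1.95) and Sox15 (-1.88). In control cells the rule gave 2 genes, Tmem258 (0.60, adjusted p = 0.018) and the Mediator subunit Med21 (0.50, adjusted p = 0.030), and neither moved past the test in Ikaros cells (-0.09 and 0.08). Both control calls were lost without the control 6 h library of batch 1 or that of batch 4, and without the control 2 h library of batch 1. Without the control 2 h library of batch 3, 1 of the 2 was kept.

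**Figure D4:**
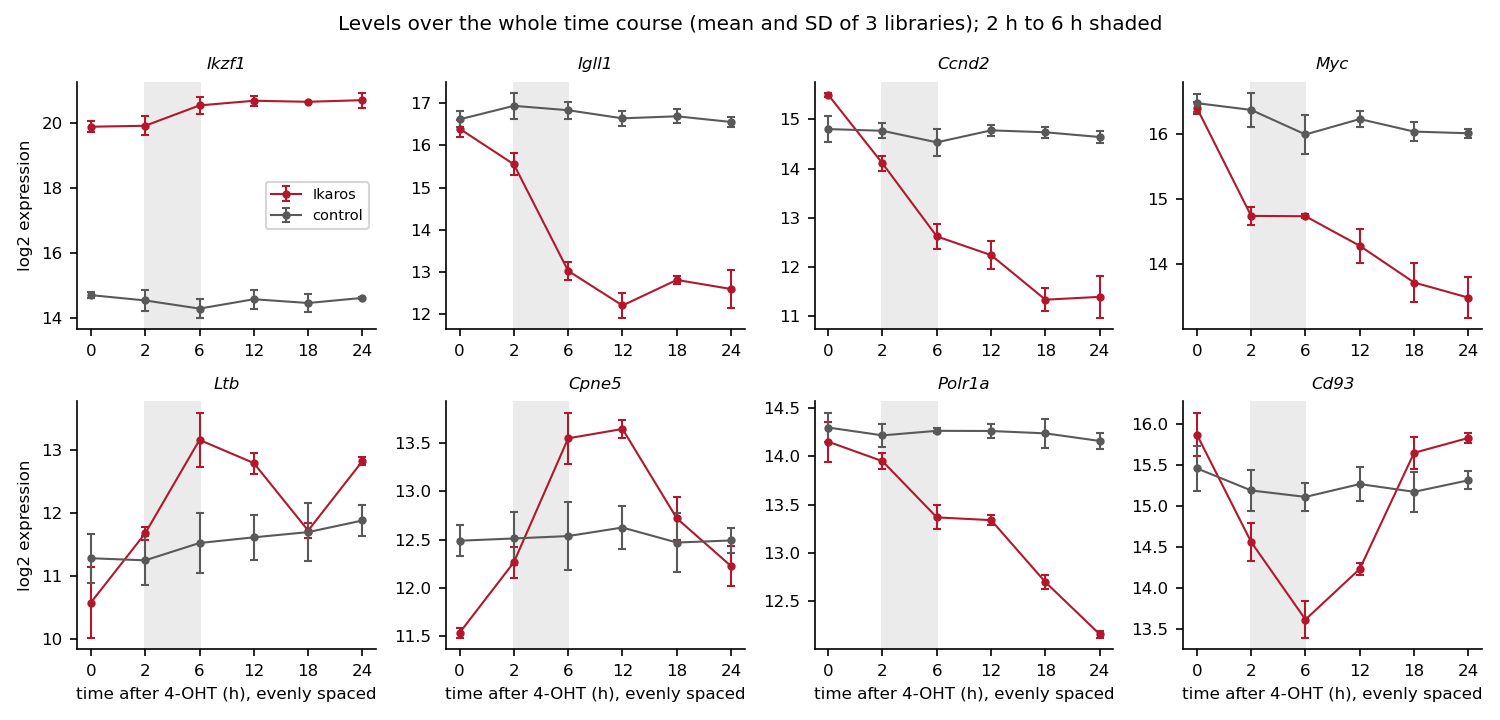
Mean log2 level with SD of 3 libraries (y axis) of 8 genes at each time after 4-OHT (x axis, evenly spaced times) in Ikaros (red) and control (grey) cells, with the interval from 2 h to 6 h shaded. Igll1, Ccnd2 and Polr1a fall in the shaded interval, Ltb and Cpne5 rise in it, and Cd93 turns upward after it. Myc stays level in the interval after an earlier fall, and its lower level at 12 h did not pass the test against 6 h.

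The genes called between 2 h and 6 h were followed to a later interval, 12 h to 24 h, which compares other libraries. Both tests use the same estimate of each gene's spread, so their calls are not independent. There 20.0% of all genes rose and 21.0% fell. Of the 712 genes higher at 6 h, 272 (38.2%) rose again and 106 (14.9%) fell, and of the 713 genes lower at 6 h, 315 (44.2%) fell again and 100 (14.0%) rose. Examples of a lasting rise are Akap12 (2.47 from 12 h to 24 h), Tubb2b (2.09) and Bach2 (2.97), and examples of a lasting fall are Ptgs1 (-1.51), Tbx19 (-2.24) and Polr1a (-1.18). Cpne5 turned, from a rise of 1.28 to a later change of -1.42, and Cd93 turned the other way, with a later rise of 1.60. Igll1 (0.39), Vpreb1 (0.01) and Ltb (0.03) were not called in the later interval.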

How the data were processed

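mRNA was measured in 36 libraries by stranded paired-end sequencing of poly(A) RNA. The authors aligned fragments to mm10 with TopHat2, counted genes with HTSeq, normalized with cqn and adjusted for library preparation with non-parametric ComBat. The deposited values are log2 values, shifted to a minimum of 1, and the file does not state the base of the log. The depth each library reached is unknown, and the strand setting of the counting is not given in the sources used here.

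Here all 12762 genes were fitted with limma 3.58.1 (R 4.3.3), a mean for each of 12 groups and no other term, with two-sided p adjusted by Benjamini-Hochberg over all genes and a call at under 0.05. The code was tested on simulated data. The members and the gene lists were chosen with earlier results of these data known. Named genes were Ikzf1, the 7 genes the study followed by RT-PCR, the 12 largest rises and falls (5 for the difference between lines, 3 for control cells) among called genes with a symbol that is not a clone name, a mean level of no less than 11.72, the median over genes, and the same sign in all 3 batches, and up to 4 called members of each list per direction, with others needed for a role. Batch numbers, given by the labels, pair 2 h with 6 h cultures, and deviations from group means correlated at 0.424, 0.066 and 0.422 in Ikaros pairs and 0.274 to 0.517 in control pairs. Alternatives were the batch block, fits of the compared groups alone, a filter at the 25th percentile, quantile normalization, median centring, trended robust moderation and leaving out libraries. Positions are from GENCODE M21 on GRCm38, the build of mm10, and promoter windows from RefSeq on GRCm38.p6. The stress response element was searched after the data were seen. Genes named for a call with the batch as a block alone were chosen after their values were seen. A few named genes are not reported here.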

Additional observations from a re-analysis of the deposited data

Results flagged for a closer look

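The change from 2 h to 6 h differed between the Ikaros and the control line in 761 genes, by the interaction contrast of the limma model at an adjusted p under 0.05. Of the genes named here 55 were among them, 26 with a higher change in Ikaros cells and 29 with a lower one. The values are the change in Ikaros cells minus the change in control cells, as differences of log2 values.

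The higher ones were Isg15 (4.42), Itgb7 (2.88), Hspa1b (2.34), Spib (1.99), Akap12 (1.72), Tubb2b (1.43), Neil1 (1.40), Agpat9 (1.39), Plekho2 (1.28), Cpne5 (1.26), Maml3 (1.23), Ifit2 (1.10), Ier5 (1.05), Rb1 (0.94), Stat3 (0.90), Crlf2 (0.89), Ikzf1 (0.88), Cdc25b (0.82), Junb (0.76), Cd79b (0.68), Poll (0.61), Cdkn2d (0.60), Foxo1 (0.53), Tnip1 (0.51), Icam1 (0.43), Vars (0.41).

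The lower ones were Igll1 (-2.42), Vpreb2 (-2.16), Tac4 (-2.08), Bok (-2.02), Vamp5 (-1.95), Ccnd1 (-1.94), Sox15 (-1.88), Tbx19 (-1.79), Epb4.1l4b (-1.73), Vpreb1 (-1.66), Ptgs1 (-1.48), Prkch (-1.47), Ccnd2 (-1.25), Eif2b3 (-1.14), Cdk6 (-0.90), Nop16 (-0.90), Cd93 (-0.87), Tyms (-0.86), Impdh1 (-0.83), Manf (-0.79), Polr1b (-0.78), Hsp90b1 (-0.76), Trp53 (-0.75), Tmem258 (-0.69), Polr1a (-0.63), Farsa (-0.63), Ebp (-0.59), Ckap2 (-0.58), Slc1a5 (-0.50). For Tmem258 the call rests on a rise in the control cells, while the change in Ikaros cells did not pass the test. The count of 761 moved with single libraries, to 338 without the Ikaros 2 h library of batch 4 and to 1272 without the control 2 h library of batch 4, and it was 391, 398 and 421 without the control 2 h libraries of batches 1 and 3 and the control 6 h library of batch 4.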

How the results depend on the processing

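The Ikaros count of 1425 was 6 with only the 6 compared libraries in the fit and 0 when the batch block was added to that small fit, where 2728 genes had an unadjusted p under 0.05. It ranged from 268 (444 and 980 without the other replicates) when a replicate of every group was left out and from 846 to 1206 when a single library was left out, and was 1112 of 9571 genes after the filter on low values. With the replicate block in the full model it was 1912, and 108 of 109 named called genes kept their call, all but Fkbp11. The control count of 5 was 32 with the replicate block, 1 with only the groups compared, 0 with these and the block (1831 at an unadjusted p under 0.05) and 2 after the filter on low values, and ranged from 0 to 42 without a replicate of every group and from 0 to 48 without a single library. The difference count of 761 was 1351 with the replicate block, 47 with only the groups compared and 506 with these and the block, and ranged from 41 (43 and 685 without the others) without a replicate of every group and from 338 to 1272 without a single library. The 12 h to 24 h count of 5231 ranged from 3088 to 5312 when replicates were left out. Why these counts differ was not tested beyond the fewer samples in the smaller fits. Quantile normalization, median centring and trended robust moderation moved the Ikaros count only to between 1386 and 1429.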
